A study of Ovis aries with 14 samples.

Results

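Basement membranes are thin sheets of extracellular matrix on which epithelia rest and which wrap muscle cells, vessels and nerves. Laminins, each built from an alpha, a beta and a gamma chain, polymerize into the sheet, nidogens and the proteoglycan perlecan tie it to the collagen IV network, and integrins, dimers of an alpha and a beta subunit, anchor cells to it. In the ovary a basal lamina encloses every follicle and separates its granulosa cells from the stroma and the vessels. The genes described here are the laminin chains, the nidogens, perlecan (HSPG2), agrin and the numbered integrin subunits with ITGAV, chosen by gene symbol alone. There were 33 of them among 17323 genes listed in any of the 3 deposited tables: 11 laminin chains, 12 alpha and 7 beta integrin subunits, 2 nidogens and perlecan. Of the 33, 32 were in every table and ITGB6 was in the fetal table only. AGRN, and the platelet integrin subunits ITGA2B and ITGB3, were not listed by name and are not analysed here.

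RNA of whole frozen ovaries was sequenced from wild type Suffolk sheep. At day 90 of gestation there were 3 control and 3 testosterone fetal samples, and at year 2 of adult life the labels list 4 samples in either group. The series text counts 3 adult controls and 4 treated adults, a difference that was not resolved, and all 8 labelled adults have values in the tables. Testosterone propionate in cottonseed oil was injected into the muscle of the pregnant mothers from day 30 to day 90, so the adults had been exposed through their mothers. The labels call the other animals control and give no vehicle for them, nor do they say how the numbered samples relate to mothers or litters, so a p-value here reflects the spread between samples alone, which may be technical. The fetal libraries carried the germ cell marker DDX4 at 118 to 262 RPM (reads per 1 M reads of the library), against 0.64 to 3.17 in the adults. The granulosa cell marker INHA was found at both ages, at 30.9 to 54.6 RPM in the fetal and 4.06 to 389 RPM in the adult libraries, and FSHR ran from 0.351 to 1.57 and from 0.142 to 68 RPM. FOXL2, AMH and CYP19A1 were not listed by name. In a whole ovary, fewer cells of a type and less RNA per cell cannot be told apart.

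Each table gives normalized counts, that is, reads divided by a size factor of the library, and the reads behind them came to 22.6 to 33.4 M per library. The first adult table holds controls 4, 5 and 6 and testosterone 4, 5 and 6. The second holds controls 4, 6 and 7 and testosterone 5, 6 and 7, so the tables share libraries and are not independent. Libraries stood apart in the adults. Control 4 had a summed smooth muscle marker level of 25531 RPM against 2422 to 9337 in the other adults. Control 6, testosterone 4 and testosterone 7 had OXT, the luteal oxytocin gene, at 3507, 4047 and 2334 RPM, against at most 3.17 in the other 5. Changes are log2 differences, testosterone minus control, of the normalized count plus 1, with their standard error (SE), and a call is a Benjamini-Hochberg adjusted p under 0.05 over all genes of a table.

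In the fetal ovary the gene that stood out was LAMC3, the laminin gamma 3 chain, whose mean was 2.35 times as high after testosterone. Its normalized counts were 3326, 2866 and 2214 in controls 1, 2 and 3, and 6899, 6378 and 6488 in testosterone 1, 2 and 3. The lowest testosterone library lay far above the highest control, and the testosterone libraries lay closer together than the controls. The means were 2802 ± 559 and 6588 ± 275 (SD, n = 3 each), with a log2 change of 1.25 (SE 0.14). With limma its adjusted p was 0.0554 and with edgeR 0.0617, both just above the threshold, and with DESeq2 on the recovered reads it was 4.82e-12. The authors' deposited table gives the same gene a log2 change of 1.23 and an adjusted p of 4.822e-12.

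The counts of LAMC1 overlapped between the groups. This gamma chain of most laminins had counts of 11892, 11625 and 12275 in the controls and 10935, 10747 and 13018 after testosterone, with a log2 change of -0.05 (SE 0.092). The ratio of LAMC3 to LAMC1 reads within a library, which no scaling of the library can alter, was 0.28, 0.247 and 0.18 in the controls and 0.631, 0.594 and 0.498 after testosterone. The mean ratio was 0.236 ± 0.0506 in controls and 0.574 ± 0.0683 after testosterone, and the groups did not overlap.

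Perlecan, a heparan sulfate proteoglycan that binds growth factors and links laminin to collagen IV, was the other member DESeq2 called. HSPG2 had counts of 18962, 14868 and 17108 in the controls and 22189, 23495 and 31955 after testosterone. The groups did not overlap, and testosterone 3 was well above the other 2 treated libraries. The log2 change was 0.60 (SE 0.15), with an adjusted p of 0.0195 by DESeq2 and 0.293 by limma.

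Over the whole set, limma called 0 of 33 members in the fetal comparison, where it called 0.0182% of all genes. DESeq2 called 2 higher and 0 lower, where it called 1.08% of all genes higher and 1.59% in either direction, and edgeR called 0 of 33 against 0.0242% of all genes. At an unadjusted limma p under 0.05 there were 7 members, which is 21.2% of them, against 9.76% of all genes. The groups did not overlap for 7 members, again 21.2%, against 16.3% of all genes. Higher after testosterone were 4, namely LAMC3, HSPG2, LAMA2 and ITGA4 (8.88% of all genes were), and lower were 3, namely LAMA5, ITGB6 and ITGB8 (7.46% of all genes were). The set as a whole had no common direction: 17 members had a positive and 16 a negative change, and the median was 0.018 against -0.019 over all genes.

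**Figure D1:**
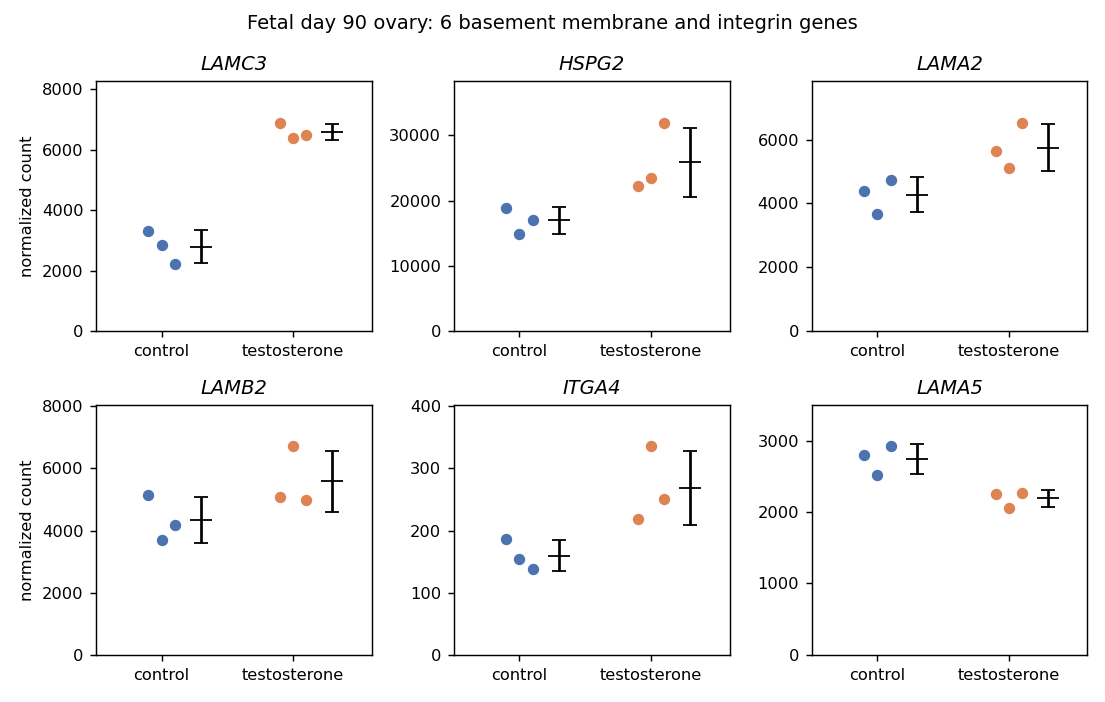
Normalized counts of 6 genes in the fetal ovary, 1 point per library (blue, 3 controls; orange, 3 testosterone), with the group mean and SD in black beside the points. The LAMC3 points of controls ran from 2214 to 3326 and those of testosterone from 6378 to 6899, while LAMB2 overlapped between the groups.

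Among the alpha chains, which give a laminin its receptor binding, 2 had groups that did not overlap, in opposite directions, and neither passed the adjusted test. LAMA2, the alpha chain of muscle laminin, had counts of 4382, 3670 and 4747 in the controls and 5628, 5097 and 6528 after testosterone. All treated libraries were above all controls (log2 change 0.43, SE 0.13, limma adjusted p = 0.34, DESeq2 adjusted p = 0.0958). LAMA5, the alpha chain of most mature epithelial and vessel basement membranes, had counts of 2797, 2515 and 2919 in the controls and 2256, 2060 and 2262 after testosterone. Every treated library was below every control (log2 change -0.32, SE 0.092, limma adjusted p = 0.336, DESeq2 adjusted p = 0.101). For LAMA1, the alpha chain of early epithelial basement membranes, the means were 18521 ± 381 and 19269 ± 5632, and testosterone 3 alone was above all controls. LAMA3, the epithelial junction chain, and LAMA4, the endothelial chain, had changes of -0.20 (SE 0.15) and 0.035 (SE 0.12), and both overlapped between the groups.

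The beta chains showed smaller differences. LAMB2, the beta chain typical of vessel, kidney and synaptic basement membranes, had counts of 5133, 3693 and 4177 in the controls and 5065, 6703 and 4972 after testosterone. Control 1 was above 2 of the 3 treated libraries (log2 change 0.36, SE 0.15, limma adjusted p = 0.5). LAMB1, the widespread beta chain, had a change of -0.14 (SE 0.11), and LAMB3, the epithelial one, of 0.12 (SE 0.19). The nidogens that bridge laminin and collagen IV both overlapped between the groups. NID1 had means of 13228 ± 1275 and 14746 ± 2596, and NID2 of 23330 ± 2394 and 20231 ± 1273, with a log2 change for NID2 of -0.20 (SE 0.098).

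Of the laminin-binding integrins, none was called by any of the 3 tools. ITGB1, the beta subunit that most laminin and collagen receptors share, had means of 18882 ± 957 and 19785 ± 2791 in the fetal groups (log2 change 0.059, SE 0.11). ITGA6 and ITGA3, its partners in epithelial laminin receptors, had changes of 0.10 (SE 0.19) and 0.14 (SE 0.12). ITGA7, the laminin receptor of muscle, had a change of -0.06 (SE 0.23), and ITGB4, the hemidesmosome subunit, of -0.081 (SE 0.26). For all 5 the groups overlapped.

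The integrin with the largest positive change was ITGA4, which pairs with ITGB1 or ITGB7 and binds VCAM1 and fibronectin. Its counts were 187, 154 and 138 in the controls and 219, 335 and 251 after testosterone, with no overlap (log2 change 0.74, SE 0.21, limma adjusted p = 0.336, DESeq2 adjusted p = 0.0904). Its leukocyte partner ITGB7 had means of 118 ± 19.5 and 130 ± 7.02, and ITGB2, the beta subunit of leukocyte integrins, of 248 ± 53.4 and 188 ± 43.3. Summed leukocyte markers were at 162 to 205 RPM in the fetal controls and 153 to 160 RPM after testosterone, with 3 of 12 markers positive. ITGB6 and ITGB8, partners of ITGAV that activate latent TGF-beta, were the integrins lower without overlap. ITGB2 (log2 change -0.40), ITGA1 (-0.37) and ITGA2 (-0.35) had more negative changes than ITGB8, but their groups overlapped. ITGB6 was near the detection limit, with counts of 8.55, 29.4 and 17 in the controls and 3.92, 7.09 and 8.5 after testosterone (log2 change -1.26, SE 0.55, limma adjusted p = 0.509). ITGB8 had counts of 154, 182 and 194 in the controls and 150, 127 and 145 after testosterone (log2 change -0.32, SE 0.18, limma adjusted p = 0.592).

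Cell type markers differed beside these genes. The 9 measured smooth muscle markers all had a positive change (median 0.55), of which DESeq2 called 3 and limma 0, and their sum was 1514 to 1950 RPM in the fetal controls and 2030 to 3044 RPM after testosterone. The 12 measured germ cell markers all had a negative change (median -0.36), but 0 of them had an unadjusted limma p under 0.05 and 0 had groups that did not overlap. The endothelial markers split 5 to 6, with sums of 610 to 807 and 552 to 847 RPM. Of 8 stromal fibroblast markers 3 were higher without overlap (DESeq2 called 2), and of 6 surface epithelium markers 3 were (DESeq2 called 1), with sums of 174 to 190 and 199 to 232 RPM for the latter. Of 6 Schwann cell and nerve markers 2 were lower without overlap (DESeq2 called 1), with sums of 70.8 to 93 and 56.4 to 67.3 RPM. Granulosa markers were higher without overlap for 2 of 8, and luteal and theca markers lower for 1 of 8 and 1 of 5 (DESeq2 called 1 lower in either list). Against these counts, 8.88% of all genes were higher and 7.46% lower without overlap. Whether the amounts of these cells account for part of the differences in LAMC3, HSPG2, LAMA2 and LAMA5 was not tested.

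Genes that act with this set were counted from wider lists, in which limma called 0 fetal genes. Of 33 measured genes listed for other basement membrane components, linkers and related proteins (COL4A3BP among the last), 15 had a positive and 18 a negative change. Their median was -0.021, and DESeq2 called 0. The smallest p among them belonged to SMOC1, a calcium-binding matricellular protein (238 ± 51.5 and 400 ± 120, log2 change 0.73, SE 0.24, limma adjusted p = 0.414), and GPC1, a glypican (927 ± 28.9 and 1085 ± 16.2, limma adjusted p = 0.476). Among 19 receptors and partners other than integrins, CD9, a tetraspanin that associates with laminin-binding integrins, was called by DESeq2. CD9 had means of 461 ± 43.3 and 759 ± 121 (log2 change 0.71, SE 0.15, DESeq2 adjusted p = 0.00364, limma adjusted p = 0.237). MUSK, the agrin-responsive kinase of the muscle synapse, had means of 31.5 ± 8.44 and 60.9 ± 19.3 (limma adjusted p = 0.448).

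Inside the cell, 28 integrin adaptors and kinases had 16 positive and 12 negative changes. Their smallest p belonged to ZYX, zyxin of focal adhesions, and to ILK, the integrin-linked kinase, with limma adjusted p of 0.61 and 0.644. Of 17 further integrin ligands, 10 had a positive change (median 0.15), of smallest p in EDIL3 (457 ± 132 and 679 ± 160) and tenascin C, TNC (314 ± 100.2 and 653 ± 379), with limma adjusted p of 0.505 and 0.506. DESeq2 called 0 of the adaptors and 0 of the ligands. The myeloid alpha subunits ITGAM and ITGAX, which the symbol rule does not cover, had means of 135 ± 32.7 and 73.8 ± 31.9, and 109 ± 36.9 and 88.7 ± 14.1 (limma adjusted p of 0.469 and 0.797).

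In the adult ovary no member was called in either table. In the first, limma, DESeq2 and edgeR called 0 of 32 members, and 0.00631%, 0.0252% and 0.0% of all genes. No member had an unadjusted limma p under 0.05, against 0.637% of all genes. In the second table the same tools called 0 of 32, and 0.00623%, 0.0311% and 0.0% of all genes, and 1 member had an unadjusted limma p under 0.05, against 0.486%. DESeq2 gave no adjusted p to 3 members in the first table and 4 in the second, among them ITGA7, ITGA8 and LAMB2. The precision was lower than in the fetus. A member's log2 change had a median SE of 0.16 in the fetal comparison and of 0.52 and 0.58 in the adult ones, a spread at which differences of the fetal size were mostly not detectable.

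The member with an unadjusted p under 0.05 was LAMA2. In the second table its counts were 3958, 3806 and 2732 in controls 4, 6 and 7, and 6009, 5778 and 4990 in testosterone 5, 6 and 7. The groups did not overlap, which among the 32 members held for LAMA2 alone and among all genes for 2.61%, with 1.05% higher after testosterone. The log2 change was 0.69 (SE 0.24, limma adjusted p = 0.9998). In the first table testosterone 4, with a count of 2834, was below all controls and the change was 0.36 (SE 0.32). Over all 8 adults the levels were 119, 124, 139 and 115 RPM in controls 4 to 7, and 104, 243, 227 and 188 RPM in testosterone 4 to 7. Testosterone 5, 6 and 7 were thus above every control and testosterone 4 was the lowest adult library, and the joined fit gave 0.51 (SE 0.27, limma adjusted p = 1.0).

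ITGB1 was the only member whose groups did not overlap in the first adult table, where 3.57% of all genes did not and 1.92% were lower after testosterone. Its counts were 30291, 21839 and 19906 in the controls and 19016, 18604 and 16831 after testosterone. On this scale control 4 was far above the rest, and control 6 was close to testosterone 4 (log2 change -0.38, SE 0.24, limma adjusted p = 0.9999). In RPM the groups overlapped, with testosterone 5 at 777 above control 6 at 732, and control 4 at 920 was near control 5 at 884. With quantile normalization the change was -0.165. The LAMC3 counts overlapped widely in both adult tables. They were 10564, 14415 and 8058 in the controls and 6060, 16251 and 10896 after testosterone in the first, with a change of -0.064 (SE 0.41), and the change in the second was 0.13 (SE 0.41).

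**Figure D2:**
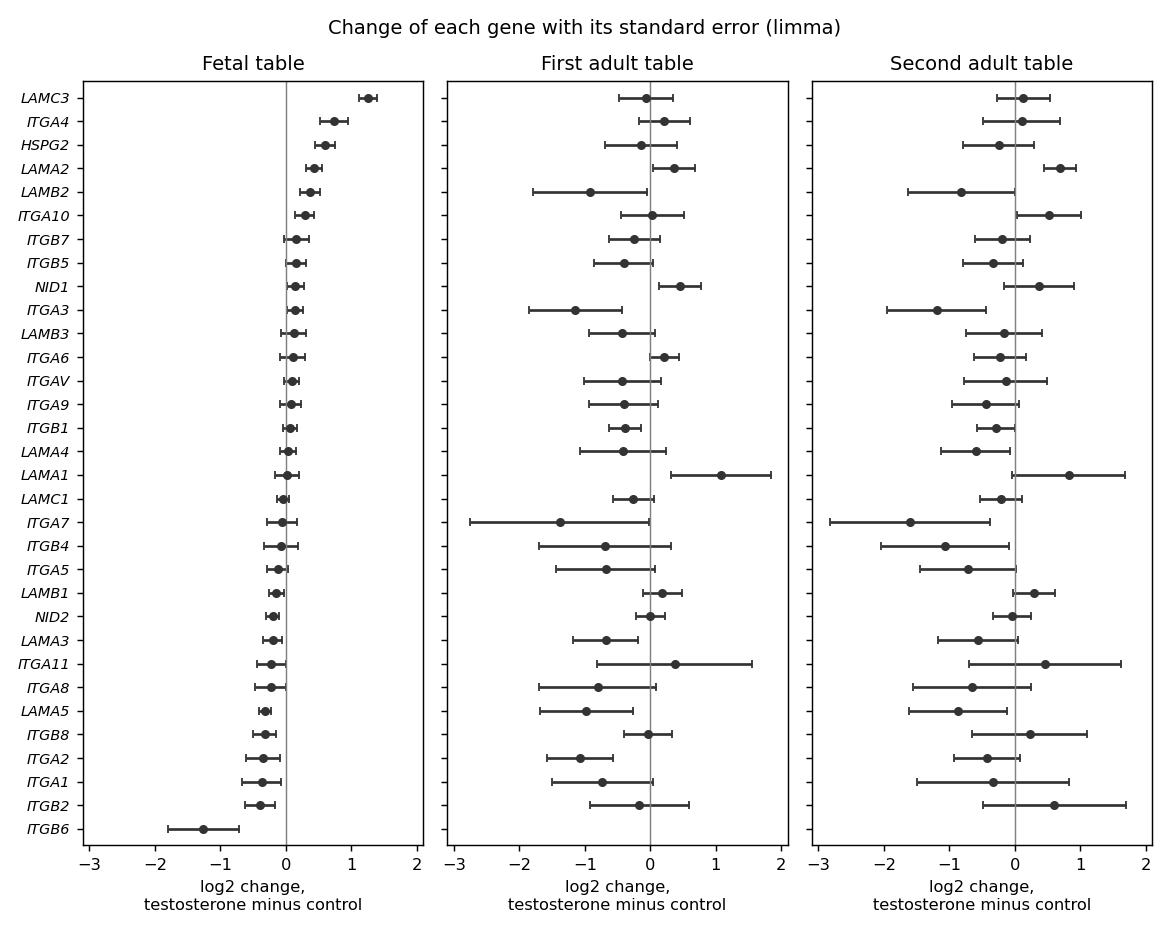
Log2 change of the members (points, 32 in the fetal table and 31 in the adult tables) with its standard error (bars) from limma in the fetal, first adult and second adult table, ordered by the fetal change. In the fetal table LAMC3 lay at 1.25 with an SE of 0.14, and in the adult tables it lay at -0.064 and 0.13 with wide bars.

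The direction of the adult changes depended on 1 library. The first table had 8 members with a positive and 24 a negative change (median -0.32 against -0.011 over all genes). Without control 4 the split was 18 to 14 (median 0.072 against -0.005). In the second it was 10 to 22 (median -0.24 against -0.007), and without control 4 it was 20 to 12 (median 0.13 against -0.011). When that library was left out, 12 of 32 members had the opposite sign in either table, 11 of them from negative to positive. The share of all genes that changed sign is not given here, so this count is not set against it. With all 8 adults joined the split was 11 to 21 (median -0.084), and without control 4 it was 24 to 8 (median 0.22), with 0 members called by limma in either.

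The adult members of smallest p were these. In the first table they were, beside ITGB1, the collagen receptor subunit ITGA2 (log2 change -1.08, SE 0.50), ITGA3 (-1.15, SE 0.71), NID1 (0.45, SE 0.32), LAMA1 (1.08, SE 0.77) and LAMA3 (-0.68, SE 0.49). In the second they were, beside LAMA2, ITGA3 (-1.19, SE 0.76), ITGA7 (-1.59, SE 1.22), LAMA5 (-0.87, SE 0.75), LAMA4 (-0.60, SE 0.53) and ITGB4 (-1.07, SE 0.97). Their limma adjusted p was 0.9999 in the first table and 0.9998 in the second. Of these genes ITGB1, ITGA3, ITGA7, LAMA5, LAMA4 and ITGB4 had their highest adult level in control 4 and LAMA1 had its lowest there, while ITGA2, NID1, LAMA3 and LAMA2 peaked in other libraries.

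Single adult libraries stood far from the rest for several members. Control 4 was the highest of the 8 adults for 14 of 32 members, which is 43.75%, against 12.8% of all genes. The 14 were LAMA4, LAMA5, LAMB2, LAMB3, LAMC1, HSPG2, ITGA1, ITGA3, ITGA5, ITGA7, ITGA8, ITGA9, ITGB1 and ITGB4. ITGA7, the muscle laminin receptor, was at 603 RPM in control 4, at 15, 30.8 and 30.0 RPM in controls 5 to 7, and at 37, 24.8, 23.3 and 45.4 RPM in testosterone 4 to 7. LAMB2 was at 1943 RPM in control 4, at 251, 258 and 323 RPM in controls 5 to 7, and at 228, 311, 353 and 348 RPM in testosterone 4 to 7. Among the other 7 adults the highest was 3.02 times the lowest for ITGA7 and 1.55 times for LAMB2, and the treatment groups overlapped for both.

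ITGB4, which anchors epithelia and is also made by vessels and Schwann cells, was at 299 RPM in control 4 and at 24.7 to 62 RPM in the other adults. LAMA5 was at 441 RPM there against 64.6 to 120 RPM, and LAMA4 at 371 RPM against 77.1 to 163 RPM. HSPG2 was at 2452 RPM against 671 to 1358 RPM. LAMA1 went the other way, with 90.1 RPM in control 4 and 305 to 1365 RPM in the other adults. Beside these values, control 4 had the highest smooth muscle sum, given above, the highest endothelial sum (3232 RPM against 640 to 1977) and the highest Schwann cell and nerve sum (109 RPM against 10.8 to 32.4). Also highest in control 4 was the stromal fibroblast sum (66827 RPM against 16572 to 49005). Yet control 4 was the lowest adult for LUM and PDGFRA of that list. Its granulosa marker sum of 129 RPM was near the low end of the other adults (115 to 952). The part of these cell types in the levels was not tested.

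**Figure D3:**
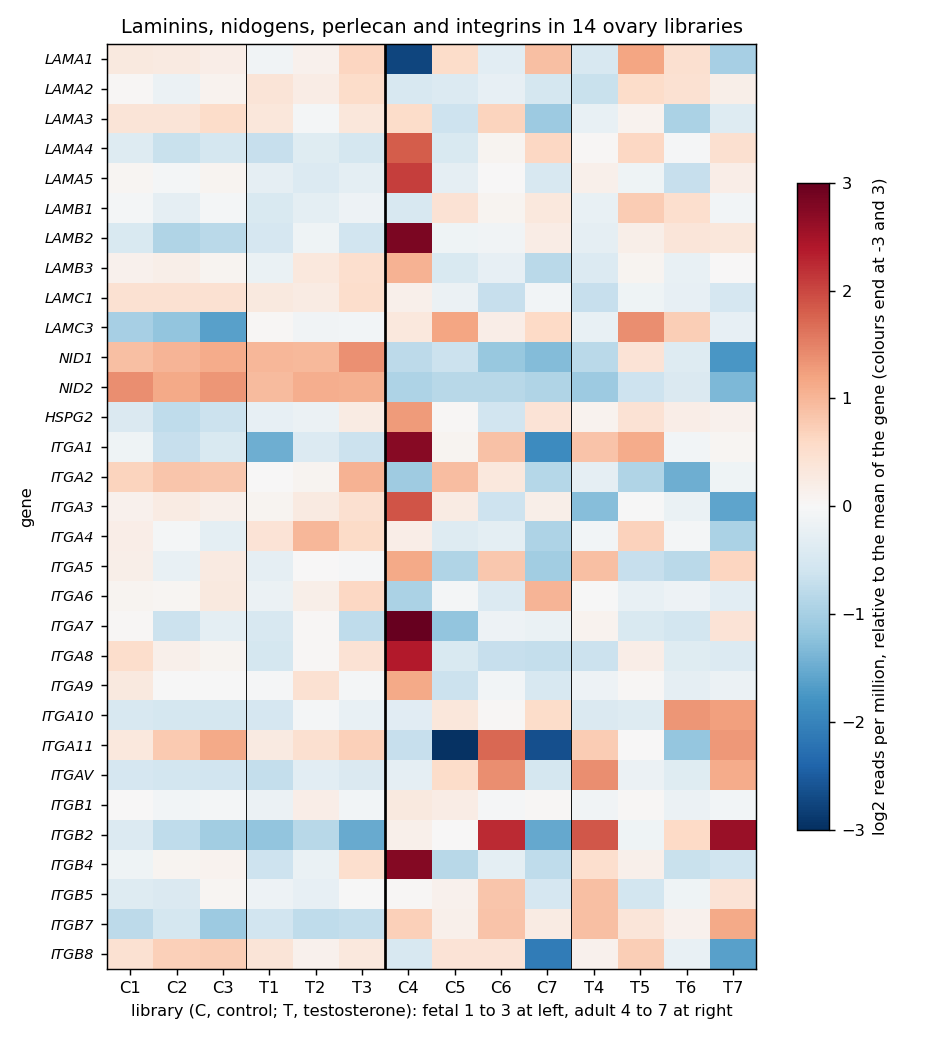
Level of 31 members in all 14 libraries as log2 RPM relative to the mean of each gene (red, above; blue, below; colours end at -3 and 3), with fetal libraries left of the thick line and adults right of it. Control 4 is the reddest adult column for LAMB2, ITGA7, ITGA8 and ITGB4, and NID1 and NID2 are redder in the fetal libraries.

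Another set of members followed the libraries rich in luteal markers. In control 6, testosterone 4 and testosterone 7 the summed luteal level was 8545, 9238 and 8373 RPM, against 235 to 368 RPM in the other adults. All 3 of these libraries were above the other 5 for ITGAV, ITGB5, ITGB2, ITGB7 and ITGA11, which is 15.6% of the members against 13.3% of all genes. They were below the other 5 for 4 of 32 members, LAMC1, LAMC3 and ITGA3 among them, which is 12.5% against 10.3%. Both shares were near those of all genes. The libraries came from both treatment groups.

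ITGAV, the alpha subunit of receptors for RGD ligands such as fibronectin and vitronectin, was at 770, 767 and 634 RPM in control 6, testosterone 4 and testosterone 7. Its levels in the other adults ran from 203 to 429 RPM. Its partner ITGB5 was at 504, 525 and 377 RPM there and at 193 to 307 RPM elsewhere. ITGA11, a collagen receptor of fibroblasts, was at 62.8, 32.5 and 46.8 RPM there and at 2.44 to 19.3 RPM elsewhere. LAMC3 was at 298, 223 and 217 RPM there and at 321 to 679 RPM elsewhere, a gap much narrower than the range within either set.

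Some leukocyte integrins were high in the same 3 libraries. ITGB2 was at 74.4, 57.1 and 95.3 RPM in control 6, testosterone 4 and testosterone 7, and at 5.45 to 23.7 RPM in the other adults. ITGAM, its myeloid partner, was at 72.9, 64.3 and 98.4 RPM there and at 1.55 to 6.61 RPM elsewhere. ITGB7 was at 14.4, 14.9 and 17.4 RPM there and at 8.64 to 12.9 RPM elsewhere. The summed leukocyte markers were 1259, 1260 and 1463 RPM there and 163 to 393 RPM elsewhere, over 12 of 13 markers found. Not every marker followed this sum. CD3E was at 14.2, 7.19 and 7.68 RPM there and at 7.44 to 13.97 RPM elsewhere. CD3D was at 5.27, 2.62 and 2.36 RPM there and at 1.51 to 5.15 RPM elsewhere. CD79A was at 3.83, 3.41 and 2.23 RPM there and at 0.886 to 3.49 RPM elsewhere. ITGAL, another alpha partner of ITGB2, did not follow the sum either, with 12.8, 11.5 and 12.1 RPM there and 4.34 to 14.5 RPM elsewhere. Nor did ITGA4, with 5.18, 5.95 and 3.26 RPM there and 3.32 to 10.3 RPM elsewhere. None of the 6 platelet markers was listed by name. The part of leukocytes in these levels was not tested.

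**Figure D4:**
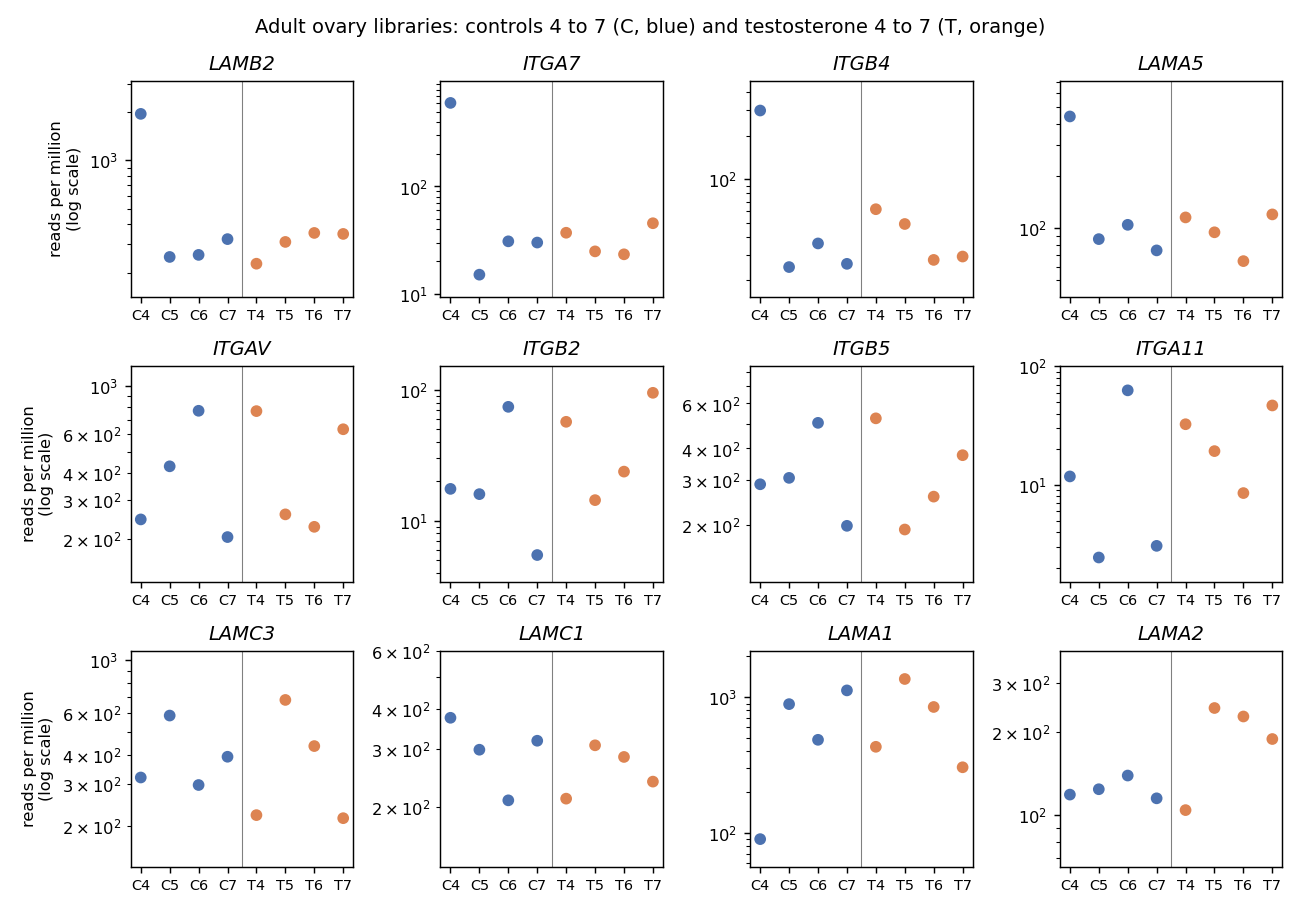
RPM on a log axis of 12 members in the 8 adult libraries (blue, controls 4 to 7; orange, testosterone 4 to 7). Control 4 stands alone for LAMB2, ITGA7, ITGB4 and LAMA5, while control 6, testosterone 4 and testosterone 7 are high for ITGAV, ITGB2, ITGB5 and ITGA11.

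The widest ranges among adults belonged to ITGA7, with a ratio of 40.1 between highest and lowest library, ITGA11 with 25.8, ITGA1, a collagen receptor, with 24.3, and ITGB2 with 17.5. ITGB1 varied least, with a ratio of 1.37. The median ratio was 4.17 for the members and 2.77 for all genes, and without control 4 it was 2.87 and 2.31 (1.58 and 1.44 in the fetal libraries).

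The wider lists gave 0 calls in the adults by limma and by DESeq2 in both tables. In the first table the 2 genes of smallest p per list were P3H2, a collagen prolyl hydroxylase (2545 ± 827 and 1408 ± 95.8, log2 change -0.81, SE 0.27), and ECM1 (-0.89) among basement membrane genes. They were the laminin receptor BCAM (-1.32) and CD9 (-0.73) among other receptors, LIMS1 (0.40) and ILK (-0.58) among adaptors, and CTGF and MFGE8 (-0.90) among ligands. CTGF, a matricellular growth factor partner, had means of 9529 ± 2668 and 3162 ± 1038 (log2 change -1.60, SE 0.32, limma adjusted p = 0.9999, DESeq2 adjusted p = 0.0857), and its change was -1.53 without control 4. Control 7, which is not in that table, had CTGF at 68.6 RPM, below all 4 testosterone libraries (74.9 to 182 RPM), while controls 4 to 6 were at 245 to 480 RPM. P3H2 was at 50.8 RPM in control 7, within the 49.0 to 63.3 RPM of the testosterone libraries. Its highest adult level was in control 4, at 105 RPM, and its change was -0.562 without that library. BCAM had means of 23076 ± 23376 and 6817 ± 2457, and control 4 alone was at 1516 RPM against 138 to 447 RPM in the other adults. The second table gave log2 changes of -1.98 for SMOC2 and 0.95 for FREM1, of -2.39 for SGCA and -0.86 for DTNA of the dystroglycan complex, of -1.21 for KANK1 and 0.32 for PTK2B, and of -1.34 for CYR61 and -1.75 for TNC, all with a limma adjusted p of 0.9998. Of these SGCA was at 50.3 RPM in control 4 and at 1.03 to 3.77 RPM in the other adults. Control 4 was also the highest adult for SMOC2, DTNA, KANK1, CYR61 and TNC, and the lowest for FREM1 and PTK2B. Without control 4 the changes were -0.917 for SMOC2, 0.544 for FREM1, -0.835 for SGCA and -0.233 for DTNA. They were -0.196 for KANK1, 0.148 for PTK2B, -0.489 for CYR61 and -0.342 for TNC. DESeq2 gave no adjusted p to SMOC2, SGCA and TNC. ITGAL and ITGAX had the smallest p among the alpha subunits outside the rule in both tables (0.24 and -0.19 in the first, 0.64 and 0.22 in the second).

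Testing the difference between the ages directly, limma called 0 of 32 members, where it called 0.00657% of all genes, and DESeq2 called 0, where it called 0.0591%. At an unadjusted limma p under 0.05 there was 1 member, LAMC3, against 2.56% of all genes. For LAMC3 the adult minus fetal difference of the log2 changes was -1.32 (SE 0.46, adjusted p = 0.998 with limma and 0.751 with DESeq2). Leaving out single libraries gave differences from -1.65 to -0.94, all negative. The larger fetal change of LAMC3 was therefore not shown to differ from the adult one after adjustment over all genes. The changes of LAMA2 at the ages differed by -0.077 (SE 0.36).

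The ages themselves were set side by side as a description, since they were normalized in separate tables. On the RPM scale the median gene was at 0.828 of its fetal level in the adults, a log2 shift of -0.27, and with TMM scaling at 1.003. All adults lay outside the fetal range for 5 of 32 members, which is 15.6%, against 26.4% of all genes. Lower in the adults were 4, with NID1, NID2 and LAMC1 among them (20.8% of all genes were), and ITGB7 was higher (5.58%). With TMM scaling NID1 and NID2 remained lower and ITGB7 higher, LAMC1 overlapped, and LAMA4, LAMB1, LAMB2 and LAMC3 joined the higher ones (11.1% of all genes were higher, 12.4% lower and 23.6% either). Without control 4, on the RPM scale, 5 members did not overlap against 29.6% of all genes, 1 higher (7.24%) and 4 lower (22.4%).

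NID2 ran from 718 to 966 RPM in the 6 fetal libraries and from 147 to 273 RPM in the 8 adults, a ratio of the fetal to the adult median of 3.99. The NID1 levels ran from 474 to 662 RPM in the fetus and from 75.6 to 335 RPM in the adult. ITGB7 ran from 3.70 to 5.45 RPM in the fetus and from 8.64 to 17.4 RPM in the adult. For these 3 genes the lowest library of the higher age was above the highest library of the other under both scalings.

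Read ratios within a library do not depend on the scaling. NID2 reads were 1.61 to 2.09 times those of LAMC1 in the fetal libraries and 0.524 to 0.999 times in the adults. For LAMC3 the ratio to LAMC1 was 0.18 to 0.631 in the fetus and 0.855 to 2.20 in the adult. Neither range overlapped between the ages. On this measure the fetal testosterone libraries lay above the fetal controls and below every adult. That place between the ages rests in part on LAMC1, at 406 to 486 RPM in the fetus and 209 to 375 RPM in the adult. In RPM, LAMC3 itself was at 241 to 264 in the fetal testosterone libraries, above adult testosterone 4 at 223 and testosterone 7 at 217. NID1 to LAMC1 ran from 1.03 to 1.36 in the fetus and from 0.317 to 1.09 in the adult, where testosterone 5 reached the fetal range.

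**Figure D5:**
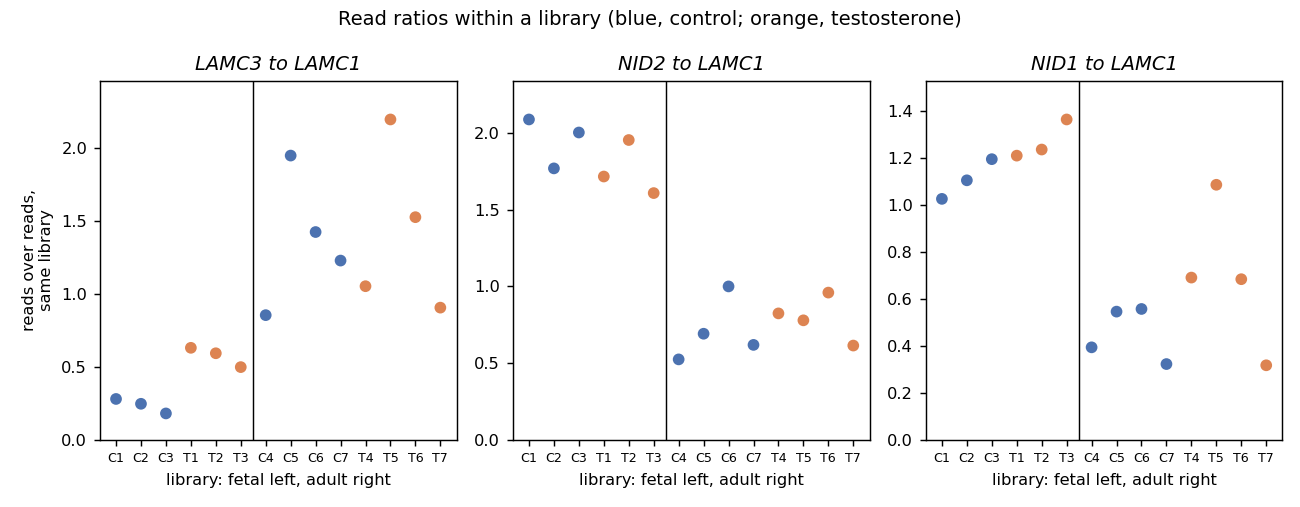
Reads of LAMC3, NID2 and NID1 divided by the LAMC1 reads of the same library, for 6 fetal (left of the line) and 8 adult libraries (right; blue, control; orange, testosterone). LAMC3 to LAMC1 was 0.18 to 0.28 in fetal controls, 0.498 to 0.631 in fetal testosterone libraries and 0.855 to 2.20 in the adults.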

How the data were processed

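RNA of whole sheep ovaries was sequenced in pairs. The submitters' processing notes list Trimmomatic 0.36 and STAR 2.5.2b, and DESeq2 is named in the series text. The counting program, build and annotation were not given in the sources used here. Deposited by the authors were 3 tables with a signal per library, which is a DESeq2 normalized count, and with columns of log2 fold change and p-value. All deposited signal values were whole multiples of 1 step per library, within 0.01 of a read, so reads were recovered by division and summed to 22.6 to 33.4 M per library. Adult control 6 is deposited with different depths, 26.4 M and then 33.4 M reads in the later table, and the deeper version was used for RPM, which is taken over the genes listed. TMM factors were from edgeR.

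Groups were tested with limma 3.58.1 under R 4.3.3, with its trend option, on log2 of each value with 1 added, table by table, for genes of mean at least 10, with Benjamini-Hochberg adjustment. DESeq2 1.42.0 and edgeR 4.0.16 were run on recovered reads, and the scripts were tested on simulated data. The fit of the ages used the fetal and first adult tables. Alternatives were no filter or a mean of at least 50, a pseudocount of 0.5 or 5, quantile normalization, a threshold of 0.1, the sample number as a block, each library left out, all 8 adults joined, and the luteal list as a covariate. Leaving control 4 out of the joined adults and of the ages was chosen after seeing the data. Smooth muscle, endothelial, leukocyte, platelet, luteal, granulosa, theca, surface epithelium, germ cell, stroma and Schwann cell marker lists were summed per library. Members, lists and rules were chosen with earlier results of these data known. Named are the laminin chains, nidogens, perlecan and laminin-binding integrins, members called by limma or DESeq2, the 6 of smallest p per table, the blood cell integrins, the 4 of widest adult range and, in each wider list, genes called or else the 2 of smallest p. ITGB8, ITGAV, ITGB5 and ITGA11, and the other members counted as highest in control 4, were named after their values were seen. The result of 1 member, which stays in the counts, is not reported here. Levels were not compared between genes, because transcript lengths were not used here.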

Additional observations from a re-analysis of the deposited data

Results flagged for a closer look

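Levels in RPM of the 32 members were screened in the 4 adult controls and the 4 adult testosterone libraries for a highest or lowest library far from the others. In 6 of 64 such groups, which is 9.38%, 1 library stood apart, a share near the 7.02% over all genes. The groups share the same libraries, so a chance rate of about 1 in 20 for independent groups is not a fair measure here. Control 4 was the highest control for 5 of the 6: LAMB2 at 1943 RPM, ITGA7 at 603 RPM, LAMA5 at 441 RPM, ITGB4 at 299 RPM and ITGA8, a receptor for nephronectin, at 192 RPM. The other controls had ITGA8 at 22.5 to 26.6 RPM. ITGA11 stood apart in control 6, at 62.8 RPM against 2.44 to 11.8 RPM in the other controls. No testosterone library stood apart for any member.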

How the results depend on the processing

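Counts of members called stayed at 0 in both adult tables and in the test between ages under every alternative run. For the fetal ovary 0 members were called with limma, 2 with DESeq2, 1 with the sample number as a replicate block, and 1 at a threshold of 0.1. Leaving out single libraries gave 0 to 1, the 1 being LAMC3 without control 3, and its change ran from 1.09 to 1.39 with limma adjusted p from 0.0475 to 0.209. Over all genes the fetal fits called 3 with limma, 262 with DESeq2, 4 with edgeR and 10 with the block, and 0 to 13 with a library left out (13 without testosterone 3). The adult fits called 1 with limma, 4 and 5 with DESeq2, and 0 with edgeR. The cause was not tested.

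Whether the sample numbers pair the libraries is not given by the labels, and the libraries are too few to decide it. Deviations of same-numbered fetal samples correlated at 0.13, 0.009 and 0.403, and not every sample correlated best with its own number. In the first adult table the same-numbered samples correlated at -0.151, 0.329 and -0.481. With the replicate block the fetal LAMC3 adjusted p by limma was 0.0456. In the second adult table that fit held only controls 6 and 7 and testosterone 6 and 7, without control 4 and testosterone 5. There ITGA7 turned to 0.13 and LAMA5 to 0.025. In the first adult table the block left out no library and did not alter the changes (median -0.32). Without control 4, in the second table, ITGB4 turned to 0.16 (range over left-out libraries -1.85 to 0.16), LAMA4 to 0.018 (-0.99 to 0.018) and LAMA5 to 0.035 (-1.49 to 0.035). With the adults joined less control 4, LAMA1 turned to -0.27, LAMA3 to 0.049, ITGA7 to 0.44, ITGB4 to 0.53, LAMA4 to 0.26 and LAMA5 to 0.19. None of these adult changes passed the threshold in those fits. The NID2 ratio of adult to fetal medians was 0.25 in RPM and 0.315 with TMM. Depth was at least 22.6 M reads per library, and it limits most the fetal ITGB6, at no more than 29.4 normalized counts.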

Other observations

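The LAMA2 reads were 0.202 to 0.257 times those of LAMA1 in the fetal controls and 0.255 to 0.383 times after testosterone, and the groups overlapped. In the adults the ratio was 1.32 in control 4, 0.616 in testosterone 7 and 0.102 to 0.286 in the other 6. The LAMB2 reads were 2.46 times those of LAMB1 in control 4, and 0.168 to 0.336 times in the other adults.

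MUSK followed the libraries rich in luteal markers, with 179, 212 and 133 RPM in control 6, testosterone 4 and testosterone 7, and 0.534 to 22.8 RPM in the other adults. Of the collagen IV chains, which form the network that nidogen and perlecan join to laminin, COL4A5 was at 911 to 1202 RPM in the fetal libraries and at 77.9 to 609 RPM in the adults, and COL4A6 at 357 to 462 and 38.7 to 433 RPM. Control 4 was the highest adult for both. COL4A1 was at 1127 to 1702 RPM in the fetus and 978 to 4106 RPM in the adult, and COL4A2 at 652 to 919 and 467 to 2225 RPM. COL4A3 and COL4A4 went the other way in control 4, which was the lowest adult for both, and their ages overlapped. COL4A3 was at 30.1 to 65.05 RPM in the fetus and 9.96 to 83.2 RPM in the adult, and COL4A4 at 65.6 to 126 and 20.2 to 179 RPM. MUSK and the collagen IV chains are given here because of these values.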
